A study of Mus musculus with 6 samples.

Results

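The amino acid transporter families described here are the solute carrier families Slc1, Slc3, Slc6, Slc7, Slc36, Slc38 and Slc43, and their members were taken as every probe of the liver array whose gene symbol belongs to one of these families. The rule took 55 of the 18138 gene symbols on the array and 80 of its 25697 probes. It used names alone and no measured value. Among them is *Slc7a6os*, a gene on the opposite strand of *Slc7a6* that shares the name but is not a carrier.

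Livers of male mice on the FVB/N background were compared at postnatal day 6 between 3 hSRY-OFF and 3 hSRY-ON animals, with 1 Illumina MouseRef-8 BeadChip array per animal. By the definition of the groups in the paper's methods, all 6 animals carried *Signalox-hSRY*, a single-copy responder transgene at the *H11* locus of chromosome 11. In hSRY-OFF mice it was not recombined, so that the broadly active *CAG* promoter drove the red fluorescent protein *DsRed2* and human *SRY*, the testis-determining gene of the Y chromosome, stayed silent. In hSRY-ON mice, Cre from the oocyte of a *Ddx4-Cre* mother removed *DsRed2* in the zygote and placed FLAG-tagged human *SRY* and *EGFP* behind the promoter in the whole animal, and the hSRY-ON mice chosen for the arrays did not carry *Ddx4-Cre* themselves. The responder was a single transgenic line, by the methods' definition with the same insertion site in both groups. By that definition the groups also differed in the reporter, *DsRed2* or *EGFP*, and its part in the differences was not tested. The paper's results call the animals set against hSRY-ON controls, a word also used there for littermates without the responder. The paper does not name the mothers of the hSRY-OFF animals. Oocyte Cre efficiently recombines the responder in pups of *Ddx4-Cre* mothers. Unrecombined carriers would therefore come from other mothers, and group could then not be told apart from mother and litter. The paper reports that hSRY-ON pups suckled minimally, lacked milk in the stomach and gut, grew more slowly and had fatty livers. How far the animals on the arrays had fed is not given, and the part of feeding in the differences was not tested. The array measured mouse transcripts, and its 1 probe for mouse *Sry* was detected on 0 of the 6 arrays.

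Amino acids cross the cell membrane through carriers that differ in the substrates they take and in the ions that drive them. Slc1 and Slc6 carriers are driven mainly by sodium, and many Slc6 members carry neurotransmitters, taurine, betaine or creatine. Slc7 members carry cationic or neutral amino acids, and several of them reach the membrane only as a pair with the heavy chain encoded by *Slc3a2*. Slc38 members take up glutamine, alanine and other small neutral amino acids, Slc36 members move them together with protons, and Slc43 members take large neutral ones. In the liver these carriers feed urea synthesis, gluconeogenesis and the exchange of glutamine with the blood.

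Short promoter sequences are shown first for the carriers whose start sites held the C/EBP-ATF element, the site through which the transcription factor Atf4 acts on genes of the amino acid starvation response described further on. The letters TGATGNAA were searched on both strands from 250 bases before to 50 bases after each RefSeq start (GRCm38.p6), where N is any base. RefSeq windows were matched for 38 of the 55 member symbols and for 6 of the 10 genes that passed the test below. The element occurred in 3 of the 38 genes, against 4.51% of all 27025 genes with a window. They were *Slc1a4* and *Slc7a7*, which are 2 of the 6 that passed the test, and *Slc7a11*, the cystine carrier, which was not detected. The element was in 0 of the 7 genes with a window that were tested and did not pass. Genes with more starts have more windows, 5 for *Slc7a7*. By window, it was in 4 of 59 for the members (6.78%), against 3.97% of all 32851. In *Slc1a4* the match lay on the other strand and ran across the start site, beginning 4 bases before it. In *Slc7a7*, which has several starts, a match began 141 bases before a start. Another match ran across that same start and lay upstream of a further start, beginning 243 bases before it. Capitals mark the match, and each sequence is written 5′ to 3′ on the gene's own strand, which is the minus strand for both genes.
*Slc1a4*, chr11:20332699-20332728: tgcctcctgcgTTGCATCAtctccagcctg
*Slc7a7*, chr14:54418067-54418096: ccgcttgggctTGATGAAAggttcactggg
*Slc7a7*, chr14:54417923-54417952: tagaagcTGATGCAAcagcttccccgaggg
The core letters bound by SRY itself, AACAAT, were in the windows of 3 of the 38 member genes (*Slc36a3*, *Slc6a20b* and *Slc7a1*, none of them detected), against 12.2% of all genes, and in 0 of the 6 that passed the test. The windows of *Slc38a3*, *Slc6a8*, *Slc7a2* and *Slc7a4* were not analysed here.

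Most of the transporter probes gave no signal above background in either group. A probe was counted as detected on an array where its detection p-value, the chance that a negative control bead gives as bright a signal, was under 0.01. By this measure 53 of the 80 probes were detected on no array, and their deposited intensities were between 121 and 187 on all 6 arrays. The number of member probes detected was 20, 22 and 23 on the hSRY-OFF arrays and 22, 20 and 20 on the hSRY-ON arrays. The group means were 21.7 ± 1.53 and 20.7 ± 1.15 (SD, n = 3), a difference within the spread between animals (p = 0.7 in a two-sided exact permutation test, which with 3 animals a group cannot go below 0.1). All arrays together detected 10318 to 10762 probes each, and values below are normalized log2 intensities, on which a difference of 1 is a doubling. The liver of hSRY-ON replicate 3 stood apart in neutrophil markers, with *S100a9* at 13.61 against 11.42 and 11.57 in the other hSRY-ON livers and 12.27, 12.12 and 12.40 in hSRY-OFF.

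**Figure D1:**
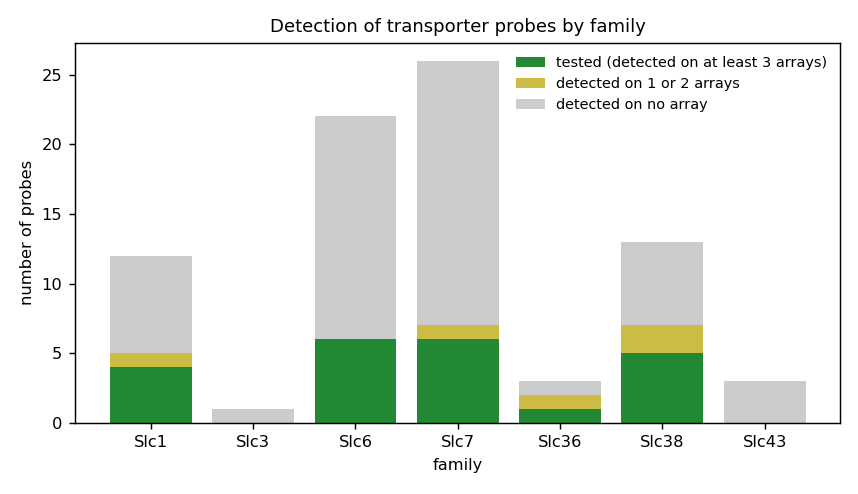
Number of probes per transporter family (y axis), split into probes tested because at least 3 of the 6 arrays detected them, probes detected on 1 or 2 arrays, and probes detected on no array. The Slc7 family had the most probes, 26, of which 19 were detected on no array, and none of the Slc3 and Slc43 probes was detected.

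The bars of detection by family show where the measurable carriers lay. The Slc7 family held 26 probes for 15 symbols and Slc6 held 22 probes for 18 symbols, but only 6 probes of each were detected on at least 3 arrays and tested. Slc38 had 5 tested probes of 13, Slc1 4 of 12 and Slc36 1 of 3. The single *Slc3a2* probe and the 3 probes of *Slc43a2* and *Slc43a3* were not detected on any array. The same was true of every probe of *Slc1a1*, *Slc1a3*, *Slc1a5* and *Slc1a7* in Slc1, of *Slc7a1*, *Slc7a3*, *Slc7a6*, *Slc7a6os*, *Slc7a9* to *Slc7a15* in Slc7, of *Slc36a3*, and of *Slc38a1*, *Slc38a8*, *Slc38a9* and *Slc38a11* in Slc38. In Slc6 it held, among others, for *Slc6a2*, *Slc6a3*, *Slc6a5*, *Slc6a7*, *Slc6a11*, *Slc6a14*, *Slc6a15*, *Slc6a17*, *Slc6a18*, *Slc6a19* and *Slc6a20b*. An undetected probe sets no bound on the transcript itself, since probes of the same gene differed in whether they were detected.

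In hSRY-ON livers, the glutamate carrier *Slc1a2*, the alanine and serine carrier *Slc1a4*, the betaine carrier *Slc6a12*, the glutamine carrier *Slc38a3* and the Slc7 members *Slc7a4*, *Slc7a7* and *Slc7a8* were lower. The arginine carrier *Slc7a2*, the creatine carrier *Slc6a8* and *Slc38a10* were higher. Of the 22 tested probes, which stand for 19 of the 55 symbols, 13 passed the test at an adjusted p under 0.05 (limma, Benjamini-Hochberg over all 10734 tested probes), 4 of them higher and 9 lower in hSRY-ON. Among all tested probes the share that passed was 33.1%, with 15.8% higher and 17.3% lower, so that differences between the groups were widespread on these arrays. For the members the share was 59.1%, and for the 16 detected on all 6 arrays it was 62.5%, with 3 higher and 7 lower, against 31.8% of all probes so detected. Of the 22 probes, 2 passed the detection filter through the group where they were high alone (*Slc1a2* ILMN_3076439 and *Slc7a2* ILMN_3038743), so their calls carry no support of their own. Without hSRY-ON replicate 3, all 13 calls were kept, with 6 probes higher and 9 lower. The 13 probes stood for 10 genes, 3 higher and 7 lower. The median difference of the 22 probes was 0.02, equal to that of all tested probes, while the median size of a difference without its sign was 0.88 against 0.34. Complete separation of the groups was found for 14 of the 22 probes, 4 higher and 10 lower, against 25.4% higher and 24.6% lower among all tested probes.

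**Figure D2:**
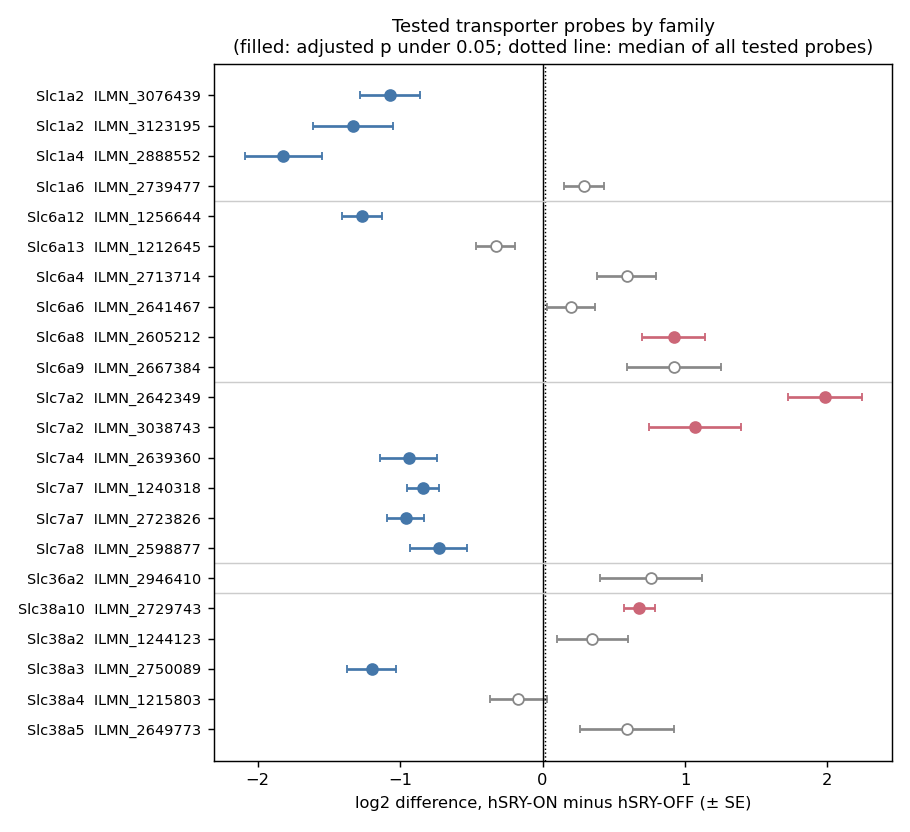
Difference in log2 intensity between hSRY-ON and hSRY-OFF (x axis, ± SE of the limma fit, n = 3 per group) for the 22 tested transporter probes, grouped by family. Filled points had an adjusted p under 0.05; the 2 *Slc7a2* probes lie at 1.98 and 1.07, *Slc1a4* is lowest at -1.82, and the dotted line marks the median of all tested probes at 0.02.

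The plot of differences by family shows both directions in Slc6, Slc7 and Slc38, and only lower probes among those that passed in Slc1. The family medians of the tested probes were -1.20 for Slc1, -0.78 for Slc7, 0.35 for Slc38 and 0.40 for Slc6. Because these medians rest on 4 to 6 probes each, and some genes have more than 1 probe, they are given as a description. They depended on the processing: without background correction they were -0.40 for Slc1 and -0.46 for Slc7, and without the detection filter, which adds the undetected probes, -0.06 for Slc1 and 0.02 for Slc7 and for Slc6.

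In the Slc1 family, *Slc1a4* encodes an exchanger of alanine, serine and cysteine. Its probe read 11.13, 10.85 and 11.08 in the hSRY-OFF livers and 9.53, 8.55 and 9.53 in the hSRY-ON livers. Every hSRY-ON value was lower than every hSRY-OFF value, with the second hSRY-ON liver lowest. The difference was -1.82 ± 0.27 (SE; adjusted p = 0.00296), or 3.53-fold lower, the largest decrease among the 22 tested probes.

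*Slc1a2* encodes a high-affinity glutamate transporter, best known from astrocytes and also present in hepatocytes. The probe ILMN_3123195 read 6.88, 6.49 and 6.38 in hSRY-OFF and 5.05, 4.85 and 5.86 in hSRY-ON, a difference of -1.33 ± 0.28 (adjusted p = 0.0105). It was detected on 1 of the 3 hSRY-ON arrays, and with undetected values set to the detection floor the difference was -0.84. The probe ILMN_3076439 read 6.30, 5.78 and 5.70 in hSRY-OFF, and in hSRY-ON, where no array detected it, 4.72, 4.64 and 5.19. It was therefore at least 1.16-fold lower (adjusted p = 0.00917), though it was tested only because the hSRY-OFF arrays detected it. The groups did not overlap for either probe. Of the remaining 2 probes of the gene, ILMN_3047516 was detected on 1 hSRY-ON array alone and ILMN_2642339 on none, and neither was tested. *Slc1a6*, a glutamate transporter of Purkinje cells, differed by 0.29 ± 0.14 with overlapping groups (adjusted p = 0.16).

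**Figure D3:**
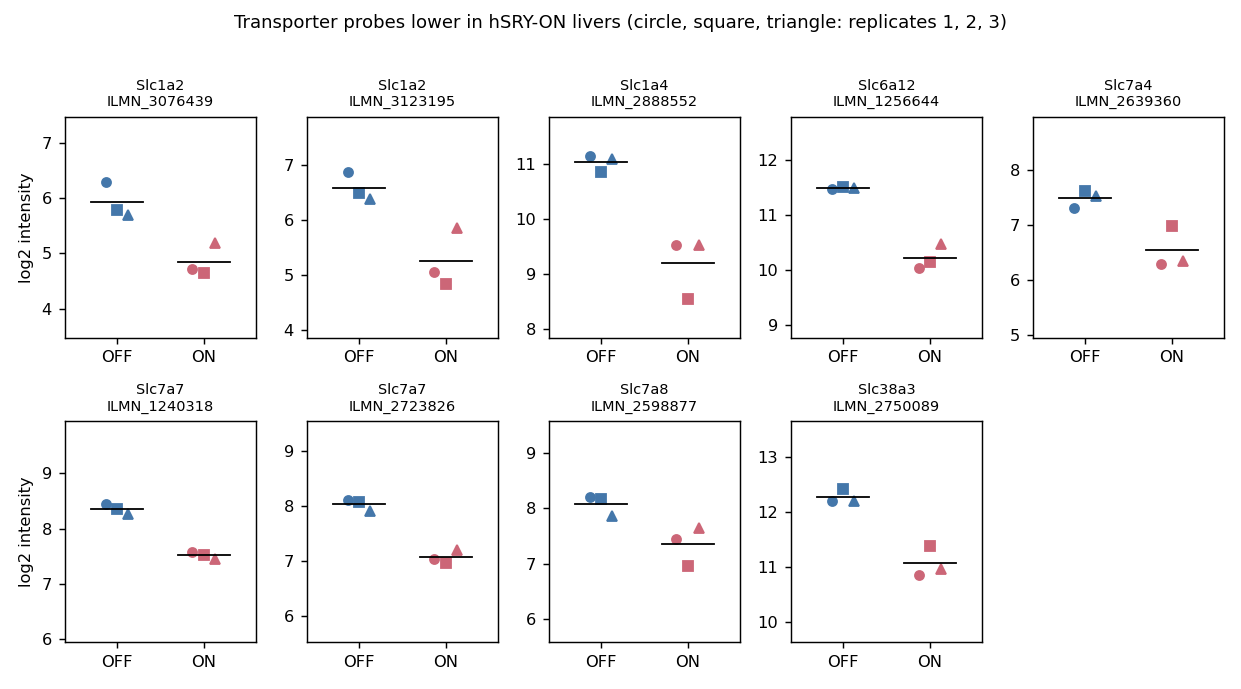
Normalized log2 intensity (y axis, each panel spanning 4 units) of the 9 transporter probes that were lower in hSRY-ON, by group. Symbols mark replicates 1 to 3, which the labels do not pair between groups, and bars mark means. In every panel all 3 hSRY-ON values lie under all 3 hSRY-OFF values.

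Within Slc6, the decrease was found at *Slc6a12*, which encodes a transporter of betaine and GABA. The values were 11.46, 11.51 and 11.49 in hSRY-OFF and 10.03, 10.15 and 10.47 in hSRY-ON. The hSRY-OFF livers were nearly equal (SD 0.02), and all hSRY-ON livers lay below them. The probe was 2.41-fold lower (difference -1.27 ± 0.14, adjusted p = 0.000975), the smallest adjusted p of the 22. Its relative *Slc6a13*, a carrier of GABA and taurine in liver, read 13.06, 12.97 and 12.97 against 12.42, 12.80 and 12.79. These groups did not overlap, but the difference of -0.33 ± 0.14 did not pass the test (adjusted p = 0.113), although it did with each of 3 other settings, which were median scaling, trimmed-mean scaling and array weights.

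The creatine carrier *Slc6a8* was the Slc6 member that was higher in hSRY-ON. Its probe read 7.47, 7.38 and 7.01 in hSRY-OFF and 8.61, 7.89 and 8.11 in hSRY-ON. The groups did not overlap, and the probe was 1.89-fold higher (0.92 ± 0.22, adjusted p = 0.0163). This call was lost without hSRY-OFF replicate 3 (adjusted p = 0.0535). *Slc6a9*, the glycine transporter that supplies haem synthesis in erythroid cells, differed by a similar amount, 0.92 ± 0.33, but its hSRY-OFF livers were spread from 8.87 to 9.95 and overlapped the hSRY-ON livers at 9.74 to 10.66 (adjusted p = 0.0685). The serotonin transporter *Slc6a4* differed by 0.59 ± 0.21 (adjusted p = 0.0699) and the taurine transporter *Slc6a6* by 0.20 ± 0.17 (adjusted p = 0.401), both with overlapping groups. *Slc6a9* passed the test under 5 other settings, among them without hSRY-OFF replicate 3 (1.24, adjusted p = 0.0243) and without hSRY-ON replicate 2 (1.17, adjusted p = 0.0382). *Slc6a4* passed with array weights and without hSRY-ON replicate 3 (0.80, adjusted p = 0.012).

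All 6 tested probes of the Slc7 family passed, in opposite directions for different genes, and 1 of them was tested only because the hSRY-ON arrays detected it. *Slc7a2* encodes a transporter of arginine, lysine and ornithine, with a splice form typical of liver. The probe ILMN_2642349 read 7.63, 7.97 and 7.51 in hSRY-OFF and 9.58, 10.25 and 9.23 in hSRY-ON. The lowest hSRY-ON liver was above the highest hSRY-OFF liver by more than the range of either group. The probe was 3.95-fold higher (1.98 ± 0.26, adjusted p = 0.00191), the largest difference of the 22 probes in either direction. The probe tested through the hSRY-ON arrays alone was ILMN_3038743, also of *Slc7a2*, which was detected on no hSRY-OFF array, where it read 5.03, 5.41 and 5.23, and on all 3 hSRY-ON arrays, at 5.95, 7.09 and 5.85. Against the detection floor this was a rise of at least 1.47-fold (adjusted p = 0.0392). The call was lost under 9 of 16 other settings, with adjusted p up to 0.125, among them leaving out any of the 3 hSRY-OFF arrays (0.0784 to 0.125) or the first hSRY-ON array (0.0517). The gene's other probe, ILMN_2770725, was not detected.

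**Figure D4:**
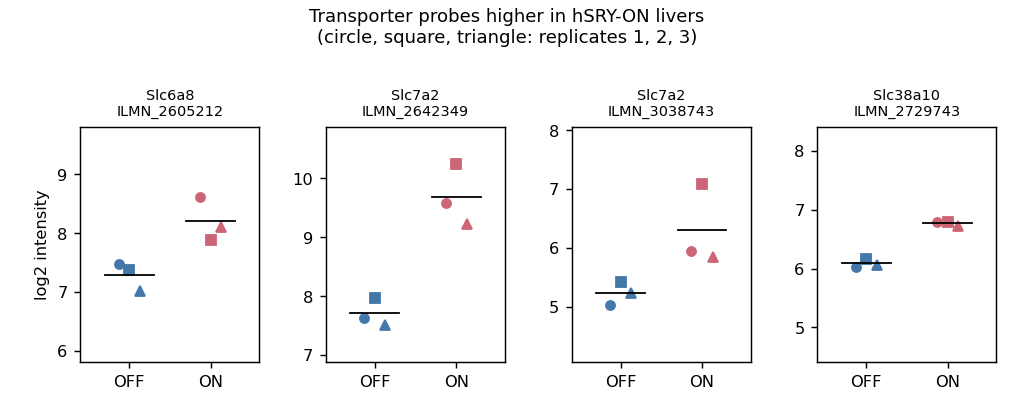
Normalized log2 intensity (y axis, each panel spanning 4 units) of the 4 transporter probes that were higher in hSRY-ON, by group. Symbols mark replicates 1 to 3, which the labels do not pair between groups, and bars mark means. The second hSRY-ON liver is highest at both *Slc7a2* probes, at 10.25 and 7.09.

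*Slc7a7* encodes the light chain that exports lysine and arginine in exchange for neutral amino acids, and its loss in people causes lysinuric protein intolerance. Its probe ILMN_2723826 read 8.10, 8.07 and 7.91 in hSRY-OFF and 7.04, 6.97 and 7.20 in hSRY-ON. Its other probe, ILMN_1240318, read 8.44, 8.35 and 8.27 against 7.58, 7.52 and 7.45. Both probes separated the groups, with SDs of 0.06 to 0.12 within a group. They were 1.94-fold and 1.78-fold lower, with differences of -0.96 ± 0.13 (adjusted p = 0.00175) and -0.84 ± 0.11 (adjusted p = 0.00211). *Slc7a7* held a promoter match to the C/EBP-ATF element shown above, as did *Slc1a4*, and both were lower in hSRY-ON. Whether Atf4 acts at these matches was not tested.

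*Slc7a8*, a light chain that exchanges neutral amino acids, read 8.20, 8.17 and 7.87 in hSRY-OFF and 7.45, 6.96 and 7.64 in hSRY-ON at ILMN_2598877. The highest hSRY-ON liver lay just under the lowest hSRY-OFF liver, and the probe was 1.66-fold lower (-0.73 ± 0.20, adjusted p = 0.0275). This call was lost without filtering and without the first or second hSRY-OFF array (0.0991 and 0.0924) or the first hSRY-ON array (0.0579). A second *Slc7a8* probe was detected on 2 hSRY-OFF arrays and no hSRY-ON array and was not tested. *Slc7a4*, a relative of the cationic carriers, read 7.31, 7.61 and 7.53 against 6.30, 6.98 and 6.34. Its groups did not overlap, and it was 1.92-fold lower (-0.94 ± 0.20, adjusted p = 0.0124), a call that was lost without the second hSRY-OFF array (adjusted p = 0.051).

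Among the Slc38 carriers, *Slc38a3* is the system N transporter through which hepatocytes exchange glutamine and histidine. Its probe read 12.20, 12.42 and 12.19 in hSRY-OFF and 10.86, 11.38 and 10.96 in hSRY-ON. All hSRY-ON livers were below all hSRY-OFF livers, and the probe was 2.30-fold lower (-1.20 ± 0.17, adjusted p = 0.00224). The second system N carrier, *Slc38a5*, differed by 0.59 ± 0.33 with wide and overlapping groups (adjusted p = 0.209), its hSRY-OFF livers lying at 9.77, 9.17 and 10.55. Without the last of these it passed the test (0.95, adjusted p = 0.0373).

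*Slc38a10*, a less studied member, was higher in hSRY-ON, at 6.80, 6.79 and 6.72 against 6.03, 6.17 and 6.07. The spread within each group was small beside the difference of 0.68 ± 0.11, which was 1.6-fold (adjusted p = 0.00407). The probe lay near the detection floor, and its difference was 0.28 without background correction. With trimmed-mean scaling, also without background correction, it was 0.27 (adjusted p = 0.0467). The system A carriers did not pass the test. *Slc38a2*, which is known to be induced when amino acids are scarce, read 10.48, 10.82 and 10.71 in hSRY-OFF and 11.34, 11.29 and 10.45 in hSRY-ON, so that hSRY-ON replicate 3 lay below all hSRY-OFF livers. Its difference was 0.35 ± 0.25 (adjusted p = 0.306), and without that liver the probe passed the test (0.64, adjusted p = 0.014). Its other 2 probes were detected on 2 hSRY-ON arrays and on 1 hSRY-OFF array and were not tested. *Slc38a4*, a hepatocyte system A carrier, differed by -0.17 ± 0.20 (adjusted p = 0.565).

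Of the proton-coupled Slc36 carriers, the glycine and proline transporter *Slc36a2* was the 1 tested, at 4.99, 4.84 and 6.11 in hSRY-OFF and 5.97, 5.69 and 6.53 in hSRY-ON. The groups overlapped, and the difference of 0.76 ± 0.36 did not pass (adjusted p = 0.148). With undetected values at the detection floor it was 0.20. Without hSRY-OFF replicate 3 it passed the test (1.15, adjusted p = 0.0239). *Slc36a1*, a carrier of the lysosomal membrane, was detected on 2 hSRY-OFF arrays and on no hSRY-ON array and was not tested.

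The labelled tissue was checked against markers of its cell types. All 6 hepatocyte marker probes were detected on all 6 arrays, and 4 of them were lower in hSRY-ON, where 17.3% of all tested probes were lower and 15.8% higher (*Alb* by -1.11 ± 0.22, both *Serpina1a* probes and *Ttr*), with a summed intensity of 62900 to 66900 in hSRY-OFF and 50500 to 55100 in hSRY-ON. Erythroid markers summed to 52600 to 57700 and 58500 to 65100, and 1 of their 4 tested probes, *Alas2*, was higher (0.93 ± 0.20). The hepatocyte sum is held mostly by *Apoa1*, which did not pass (-0.12 ± 0.12), and by *Ttr*. The *Hnf4a* probe did not pass either (-0.09 ± 0.21). The *Alb* probe was dim, at 6.55 to 8.16, against 14.18 to 14.76 for *Ttr*. The erythroid sum is held by *Hba-a1*, which normalization set to 15.50 on all 6 arrays and which therefore cannot show a shift. For macrophages, 4 of 9 tested probes were lower and 1 was higher, with sums of 6220 to 8440 and 4180 to 5470, and for stellate cells 2 of 7 were lower and 1 higher, with sums of 11600 to 13500 and 9160 to 10900. Of the stellate markers, *Lrat* and *Reln* were lower, *Des* was higher (0.77 ± 0.23, adjusted p = 0.0383), and no other stellate probe passed. *Lrat* and the lower macrophage probe *Clec4f* ILMN_2876653 were detected on no hSRY-ON array. Both were tested only because the hSRY-OFF arrays detected them. The higher macrophage probe was *Csf1r* ILMN_2710819 (0.48 ± 0.15), while *Csf1r* ILMN_1230485 did not pass (-0.16 ± 0.14). Of the 6 tested endothelial probes 3 were higher and 1 lower, with sums of 7970 to 9550 and 6730 to 8630. That sum is held mostly by *Clec4g*, the lower probe, while both *Pecam1* probes and *Lyve1* were higher. The 1 tested biliary probe and the 7 neutrophil probes gave no call, with neutrophil sums of 38000 to 42900 and 27000 to 76600 and biliary sums of 120 to 168 and 109 to 158. The 76600 is that of hSRY-ON replicate 3. The part of these marker differences in the carrier results was not tested. In whole liver, fewer cells of a type and less RNA per cell cannot be told apart.

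**Figure D5:**
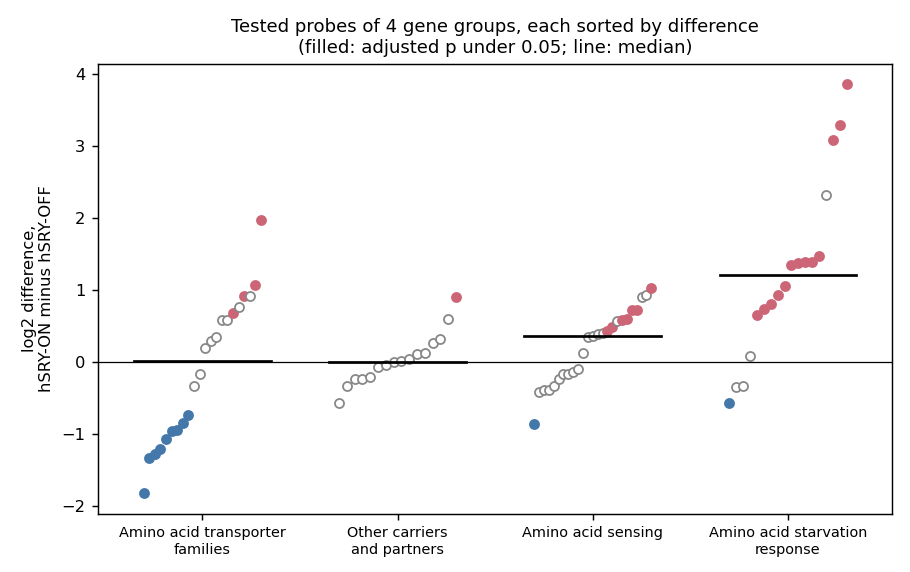
Difference in log2 intensity between hSRY-ON and hSRY-OFF (y axis) for the tested probes of the transporter families and of 3 related gene groups, each sorted from lowest to highest. Filled points had an adjusted p under 0.05 and lines mark medians, which are 0.02, 0.01, 0.37 and 1.20 from left to right.

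The plot of related gene groups sets the families beside other genes that handle or sense amino acids. The other carriers and partners, such as mitochondrial and lysosomal amino acid carriers, had 16 tested probes. Only *Slc15a4*, a lysosomal carrier of histidine and peptides, passed among them, at 8.80, 9.25 and 9.17 in hSRY-OFF and 10.06, 10.39 and 9.49 in hSRY-ON (0.91 ± 0.24, adjusted p = 0.0261). The share of 6.25% stood against 33.1% of all tested probes, and the median was 0.01. The number of higher probes was 0 when any array other than hSRY-ON replicate 3 was left out, and 2 without that array.

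Of the genes through which amino acids act on mTORC1, the kinase complex that couples nutrients to growth, 7 of 25 tested probes were higher and 1 was lower, a share of 32%, near the 33.1% of all tested probes, with a median of 0.37. The 7 became 2 without hSRY-OFF replicate 1, 3 without hSRY-OFF replicate 2 and 4 with median scaling. The 1 lower became 0 without hSRY-OFF replicate 1 or 3 or hSRY-ON replicate 1, and 4 without hSRY-ON replicate 3. The smallest adjusted p among the higher ones was at *Nprl3*, listed under its older name *Mare*, which belongs to the GATOR1 complex that holds mTORC1 back when amino acids are scarce. It read 6.98, 6.95 and 6.90 in hSRY-OFF and 7.70, 7.67 and 7.61 in hSRY-ON (0.72 ± 0.11, adjusted p = 0.00303). Higher probes also belonged to *Flcn*, *Fnip1*, *Rheb*, *Rragc* and *Seh1l*. The lower one was *Lamtor2*, listed as *Robld3*, a subunit of the Ragulator scaffold on the lysosome, at 6.71, 6.35 and 7.15 against 5.61, 6.07 and 5.95 (-0.86 ± 0.22, adjusted p = 0.0242).

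In the amino acid starvation response, the factor Atf4 raises genes of amino acid synthesis and transport. Its list had 13 of 18 tested probes higher and 1 lower, with a median of 1.20. The share that passed was 77.8%, against 33.1% of all tested probes, and 15.8% of all tested probes were higher. The 13 higher probes stood for 10 genes. Of the 13, *Trib3* ILMN_1244279 was detected on no hSRY-OFF array and was tested only because the hSRY-ON arrays detected it. Its call carries no support of its own. *Atf4* itself read 8.59, 8.55 and 9.0 in hSRY-OFF and 9.37, 9.29 and 9.47 in hSRY-ON (0.66 ± 0.15, adjusted p = 0.0158). The largest difference was at its target *Trib3*, 3.86 ± 0.26 at ILMN_1225528 (adjusted p = 0.000154), and the lower probe was that of the RNA-sensing kinase *Eif2ak2* (-0.57 ± 0.17, adjusted p = 0.0401). No lower probe was left when any array other than hSRY-ON replicate 3 was left out, while 5 other background or scaling settings gave 2. The direction of these genes was already known from these arrays when the list was drawn up, so it is not independent evidence. Whether amino acids were scarce in these livers was not tested, nor was the part of the poor suckling that the paper reports. Beside these 13 higher probes stood the transporter families, with 9 lower and 4 higher.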

How the data were processed

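The deposited table gives, per array and probe, the bead intensity as exported by the scanner software, not normalized by the authors, and a detection p-value. Per the labels, total RNA was labelled as biotinylated cRNA, and the submitters' processing notes name limma. The methods name another package for normalization and give no model. Here, R 4.3.3 and limma 3.58.1 were used: background correction from detection p-values (nec, offset 16), quantile normalization and log2, then lmFit and eBayes on probes detected at p under 0.01 on at least 3 of 6 arrays, two-sided, with Benjamini-Hochberg adjustment over all 10734 probes. Probes of a gene were kept apart. A probe undetected on every array of a group was given a bound against the detection floor. The number of arrays limits the precision. Quantile normalization makes every value relative to the other probes of its array. All member probes that passed were named with every value, other tested members with their difference, and the rest by detection, except for an item that is not reported here. For related lists the smallest p in each direction was named, and *Atf4*. Other genes of these lists were chosen after their values were seen. Members and lists were chosen with earlier results of these data known. The code was tested on simulated data. No date or chip position was given in the sources used here, so batches could not be tested.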

Additional observations from a re-analysis of the deposited data

How the results depend on the processing

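Background correction, scaling, filter, variance model, threshold, replicate block and each single array were changed in turn. Every one of the 13 transporter calls kept its direction; *Slc7a2* ILMN_3038743, *Slc7a8*, *Slc6a8* and *Slc7a4* lost the 0.05 threshold under settings named above. At 0.01, 8 of the 13 remained, with these 4 and *Slc1a2* ILMN_3123195 lost. The number of higher transporter probes, 4, became 8 with array weights and 2 at an adjusted p under 0.01, where all tested probes gave 693 higher and 972 lower against 1700 and 1854. Leaving out single arrays gave 3 to 6 higher and 7 to 9 lower transporter probes. Among all probes it gave 896 to 1941 higher and 1144 to 2123 lower, the fewest without the first hSRY-OFF array, while without the second there were 976 and 1184. Counting probes by current symbols, or leaving out *Slc7a6os*, both chosen after seeing the data, changed no call. Same-numbered arrays did not deviate together (correlations 0.02, 0.1 and 0.05). With 3 arrays a group this cannot show whether a number marks a shared litter, chip or batch. With the replicate block 6 transporter probes were higher and 8 lower. That block ended the *Slc7a8* call (adjusted p = 0.0507) and added *Slc6a9* (0.0424) and *Slc36a2* (0.0226); it changed no other transporter call, and not every array correlated best with its own number. The cause of these changes was not tested. Probes near background, among them both *Slc1a2* probes, carry folds that shrink with a larger offset (-0.59 and -0.83 with an offset of 50, and -0.34 and -0.45 without background correction, in place of -1.07 and -1.33).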

Other observations

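Under older names the array also held a probe for *Slc6a21* (listed as *1700039E15Rik*) and for *Slc6a20a* (listed as *Xtrp3s1*), which the rule did not take. Both were detected on 0 of the 6 arrays.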
